A study of Mus musculus with 4 samples.

Results

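The secretory genes of goblet cells were examined in RNA from CD8αβ+ intraepithelial lymphocytes (IELs) of the mouse small intestine and CD8αβ+ splenocytes (SPLs). The 9 genes were *Muc2*, *Tff3*, *Spink4*, *Agr2*, *Fcgbp*, *Zg16*, *Retnlb*, *Clca3* and *Spdef*, of 27376 genes named on the array. All probes annotated with one of these names were taken, which gave 12 of 41174 probes. The 9 genes were selected with their IEL and SPL values already known, so their difference between the groups is described below without a test.

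Goblet cells are epithelial cells of the gut that store and release mucus, and they lie between the absorptive cells near which IELs reside. MUC2 is the gel-forming mucin of intestinal mucus, and its large subunits need the endoplasmic reticulum protein AGR2 for their folding and SPDEF, a transcription factor, for the maturation of the cells that make them. TFF3, FCGBP, ZG16, CLCA proteins and the cytokine-like RELMβ (*Retnlb*) are secreted with the mucin, where they help to shape the mucus or act on bacteria.

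Both groups came from male wild-type mice aged 8 to 12 weeks and carried no further allele or treatment. The IELs came from small intestinal epithelium and the SPLs from the spleen, both sorted as CD45+ CD3+ CD8β+ CD8α+ TCRβ+ cells, a gate set to select T cells. Each sample was sorted from a pool of several mice, and there were 2 samples per group. Samples were run on separate 1-color arrays, and the values are log2 intensities after subtraction of the 75th percentile of the array, so that 0 is the level of a bright probe on that array.

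The 4 arrays did not stand equally far from each other. IEL replicate 1 and SPL replicate 2 shared slide 1, and IEL replicate 2 and SPL replicate 1 shared slide 2. Over 27912 tested probes, IEL replicate 2 correlated more closely with SPL replicate 1 (r = 0.992) than with IEL replicate 1 (r = 0.946). Its correlation with SPL replicate 2, on the other slide, was also higher (r = 0.973). IEL replicate 1 also stood apart in markers of other cells. The summed level of 5 erythroid genes was 1.15 there and between 75.01 and 116 on the other arrays, and that of 6 B cell genes was 4.03 against 24.3 to 30.5. The 10 T cell genes, among them *Cd3e* and *Cd8b1*, were well above background on all 4 arrays, with summed levels between 707 and 733. The goblet cell genes are therefore given in every sample and also compared within each slide. In RNA of a sorted population, fewer cells of a type and less RNA per cell cannot be told apart.

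The oligonucleotides that measured the genes are shown first, since 2 of the genes had more than 1 probe and their probes differed in size of response. Each line gives the gene, the probe, its position on mm9 and the first 30 of its 60 bases, in lower case. Only probes that were tested are shown, that is, probes well above background on both arrays of at least 1 group.
Muc2 A_51_P128320, chr7:148940000-148940059: tgtctccgtcatgaaggagatttcctacaa
Muc2 A_52_P565926, chr7:148883009-148883068: acaaggatgtgcacgcttgcccaagctcac
Tff3 A_51_P456208, chr17:31262279-31262338: ctgctgcaggccaataaaggagccaggagt
Spink4 A_52_P650453, chr4:40876206-40878330: acctttgcctgacccggatgaaaaccatga
Agr2 A_51_P209122, chr12:36730506-36730565: gtcaggagaccagaaggcagaagcactgtg
Fcgbp A_51_P380078, chr7:28905517-28905576: gtggaaactttgatggggaccaaaccaacg
Fcgbp A_52_P419059, chr7:28902583-28905377: atcccaagcaagggtgcatgggtgaatggt
Zg16 A_51_P140429, chr7:134193837-134193896: aacactgtcctccgtttcattagtgggcaa
Clca3 A_51_P422751, chr3:144667558-144667617: tttctaaaaatgtactttagacttcctgta
The probes for *Retnlb* (chr16:48818874-48818933) and *Spdef* (chr17:27851650-27851709), did not reach that level in both arrays of a group, and the other *Muc2* probe (chr7:148879101-148879252) did not rise well above background in any sample. The probe that the array calls *Clca3* carries a transcript that is now named *Clca1*, and the older name is kept here. The *Spink4* probe, the second *Fcgbp* probe and the *Muc2* probe that is not shown span more bases of the genome than their own length. An mm9 gene annotation was not used here, so exons and UTRs are not stated.

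Of the 9 genes, 8 were higher in both IEL samples than in both SPL samples, and the median difference was 4.03 on the log2 scale. The exception was *Spdef*. These counts rest on the values by which the genes were selected. Over all tested probes, 24.4% were higher in both IEL samples than in both SPL samples. The 8 genes also shared one order, with IEL replicate 1 highest, then IEL replicate 2, then SPL replicate 1, and SPL replicate 2 lowest, an order found in 13.8% of all tested probes. For *Retnlb*, the 3 lower values in this order were not well above background. Plain normexp background correction lowered the number of genes with separate groups from 8 to 2 and turned the direction of *Muc2*, *Retnlb* and *Spdef*, whereas the other background corrections and scalings left 8 or 9 genes with separate groups.

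**Figure D1:**
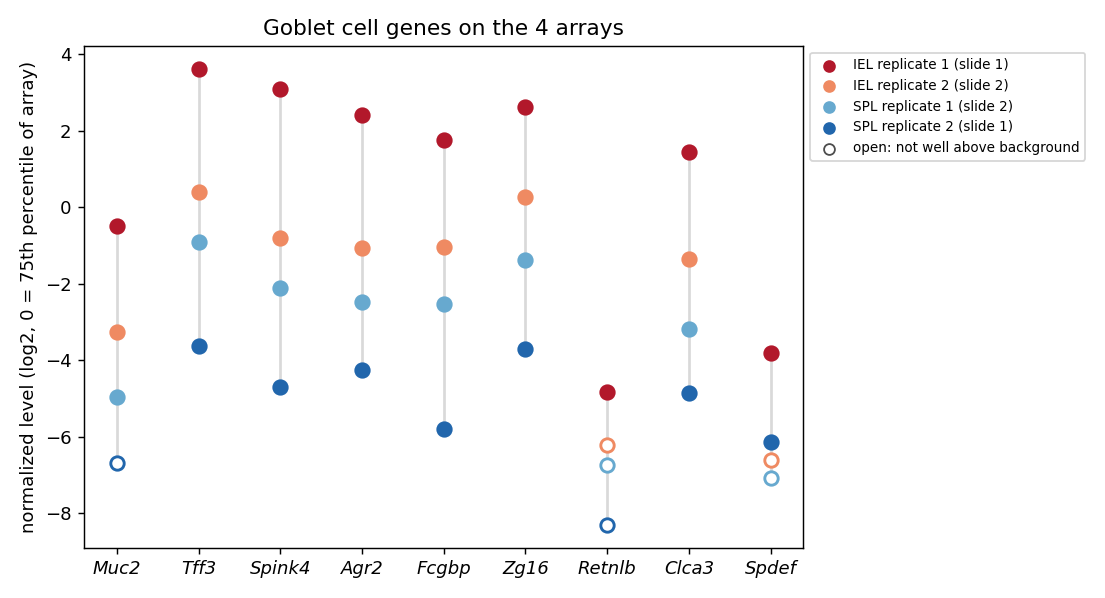
Normalized level of each goblet cell gene on each array, with log2 units on the y axis and 0 at the 75th percentile of the array. Each point is 1 array, and open points were not well above background. In 8 of the 9 genes, the 2 IEL arrays lie above the 2 SPL arrays, and in all 9 genes IEL replicate 1 is the highest.

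*Muc2*, the mucin itself, had levels of -0.49 and -3.25 in IEL replicates 1 and 2, and of -4.95 and -6.67 in SPL replicates 1 and 2. The groups did not overlap, but SPL replicate 2 was not well above background, so that 1 of the 2 SPL arrays measured the transcript. The IEL mean was -1.87 ± 1.95 and the SPL mean -5.81 ± 1.22 (SD, n = 2), a difference of 3.94. With SPL replicate 2 set to the lowest level that its array measured, the difference was 3.78. A second *Muc2* probe, at lower coordinates of chromosome 7, gave -3.60 and -4.71 in IELs and -5.52 and -5.60 in SPLs. It kept the order of the arrays with a smaller difference of 1.40, and its raw signal was 1.82 times the local background in IEL replicate 1, against 8.08 times for the first probe. The 2 probes thus disagreed on the size of the difference and not on its direction.

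Of the proteins secreted with the mucin, *Tff3* encodes a trefoil peptide that takes part in repair of the epithelium. Its intensities were 3823 and 574 units in IEL replicates 1 and 2, and 254 and 49.0 units in SPL replicates 1 and 2. The normalized levels were 3.62, 0.40, -0.91 and -3.63 in the same order. The gap between the 2 IEL samples was thus wider than the gap between IEL replicate 2 and SPL replicate 1.

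*Zg16*, which encodes a lectin-like protein that binds Gram-positive bacteria, had levels of 2.61 and 0.26 in IELs and of -1.38 and -3.70 in SPLs. *Clca3*, which encodes a metalloprotease of the mucus, had levels of 1.45 and -1.35 in IELs and of -3.17 and -4.85 in SPLs. Both genes were well above background on all 4 arrays, and their differences between group means were 3.97 and 4.06.

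*Fcgbp* encodes a large protein with von Willebrand domains that is bound to the mucus. Its brighter probe had levels of 1.75 and -1.05 in IELs and of -2.54 and -5.78 in SPLs, a difference of 4.51. The other *Fcgbp* probe had 0.84 and -1.85 in IELs and -3.01 and -4.14 in SPLs, a difference of 3.07. Both probes placed the arrays in the same order.

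*Spink4*, which encodes a Kazal-type protease inhibitor of goblet cell granules, had levels of 3.09 and -0.80 in IELs and of -2.10 and -4.70 in SPLs. Its difference was 4.55, with SDs of 2.75 in IELs and 1.83 in SPLs (n = 2 each). *Agr2*, the disulfide isomerase needed for mucin folding, had levels of 2.41 and -1.06 in IELs and of -2.47 and -4.24 in SPLs, a difference of 4.03. The IEL samples were separated by 3.89 log2 units for *Spink4* and by 3.47 for *Agr2*.

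*Retnlb* was well above background in IEL replicate 1 alone. Its level there was -4.84, against -6.20, -6.74 and -8.30 in IEL replicate 2 and SPL replicates 1 and 2. The IEL mean was 1.74-fold higher than the lowest levels that the SPL arrays could measure. It is not a lower limit, since only 1 of 2 IEL arrays measured the gene and the other entered at its dim value. On each SPL array, the lowest measurable level was that of the dimmest probe well above background.

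*Spdef* was well above background in IEL replicate 1 (-3.82) and in SPL replicate 2 (-6.14) and not in the other samples (-6.59 in IEL replicate 2 and -7.07 in SPL replicate 1). The groups overlapped, since SPL replicate 2 was above IEL replicate 2. The transcription factor was thus detected weakly, and its own difference between group means was 1.39, which fell to 0.0072 without IEL replicate 1 and rose to 2.78 without IEL replicate 2.

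The size of the difference depended on the slide for each gene. On slide 1, *Spink4* was 221-fold higher in the IEL sample than in the SPL sample, *Fcgbp* 185-fold, *Tff3* 151-fold and *Agr2* 101-fold. On slide 2, the same genes were 2.47-fold, 2.82-fold, 2.49-fold and 2.65-fold higher. Over the 7 tested genes, the differences lay between 6.18 and 7.79 log2 units on slide 1 and between 1.31 and 1.82 on slide 2. Within a slide the 7 genes thus differed from each other by less than the slides differed for any one gene. The lowest value on slide 1 was that of *Muc2*, which was 5.86 with SPL replicate 2 at its limit. The slides hold different samples, so slide and sample cannot be told apart.

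**Figure D2:**
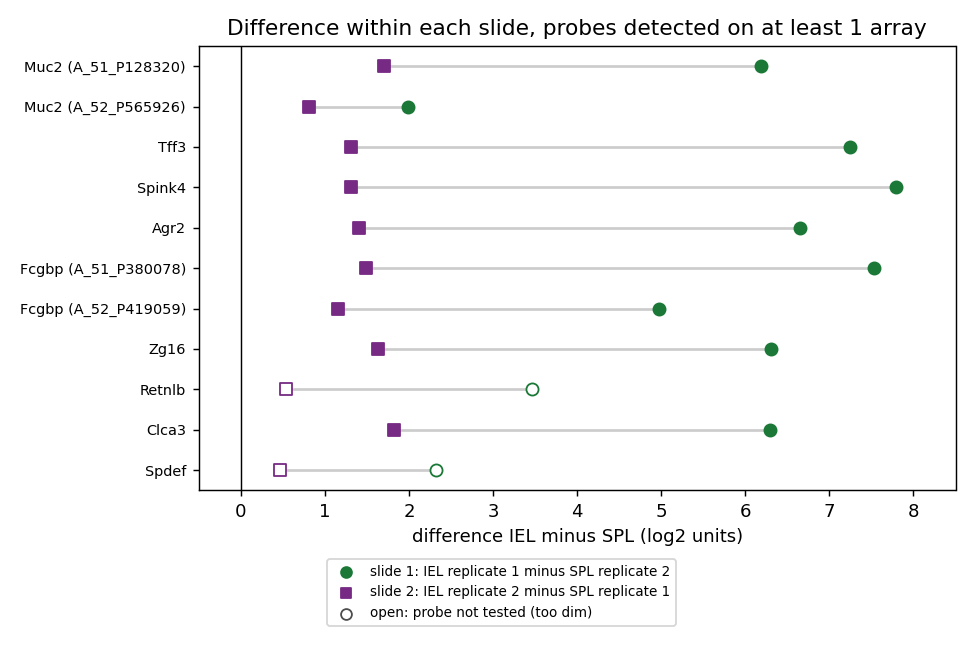
Difference between the IEL and the SPL sample of each slide, in log2 units on the x axis, for each probe that was well above background on at least 1 array. Circles are slide 1, squares are slide 2, and open symbols are probes too dim to be tested, whose differences are not bounds. The 7 tested genes lie between 1.31 and 1.82 on slide 2 at their brightest probe, and between 6.18 and 7.79 on slide 1.

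Replicates of one group also lay far apart. IEL replicate 1 was above IEL replicate 2 by 2.35 to 3.89 log2 units over the 7 tested genes, and SPL replicate 1 was above SPL replicate 2 by 1.68 to 3.24. When each sample was left out in turn, the median difference of the 9 genes was lowest without IEL replicate 1 (2.60) and highest without IEL replicate 2 (5.46). All 7 tested genes were at least 2-fold higher in the IEL sample on both slides, as were 1.79% of all tested probes, and this count again rests on the values that selected the genes.

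The raw signals gave the margin over background behind these values. In IEL replicate 1, the *Tff3* spot was 103 times its local background, and in SPL replicate 2 it was 2.80 times. For *Spink4* the same ratios were 69.7 and 1.87, and for *Agr2* they were 48.2 and 2.04. In SPL replicate 2, the brightest probes of the 7 tested genes were therefore close to the local background, between 1.32 and 2.80 times it. The median difference of the 9 genes over all 4 arrays depended on how the background was subtracted. It was 2.90 when normexp was fitted without the few spots far below their local background, against 4.03 in the main processing. The part of any one array in this was not tested.

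The place of the slide 2 samples between the slide 1 samples was also computed on the linear intensity scale, with SPL replicate 2 at 0% and IEL replicate 1 at 100%. For the 7 tested genes, the median place was 13.2% for IEL replicate 2 (6.33% to 18.6%) and 3.21% for SPL replicate 1 (2.29% to 5.12%). All 1190 tested probes at least 2 log2 units higher in IEL replicate 1 than in SPL replicate 2 were placed too. Their medians were 25.9% for IEL replicate 2 (-12.1% to 449%) and 8.41% for SPL replicate 1 (-19.3% to 176%). *Zg16* lay at 18.6% and 5.12% in these samples, and *Spink4* at 6.33% and 2.29%. The IEL replicate 2 value was above the SPL replicate 1 value for all 7 genes.

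**Figure D3:**
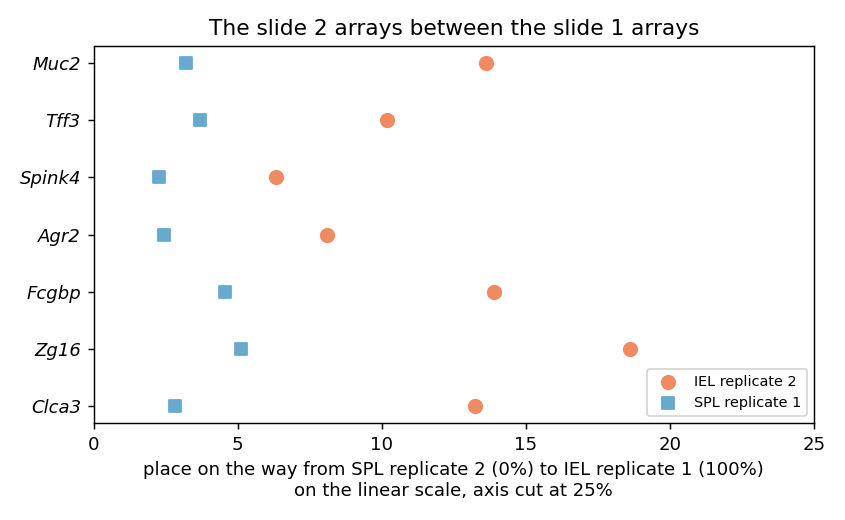
Place of the 2 samples of slide 2 on the way from SPL replicate 2 (0%) to IEL replicate 1 (100%), in percent of the linear normalized intensity, for the 7 tested goblet cell genes. Circles are IEL replicate 2 and squares are SPL replicate 1. IEL replicate 2 lies between 6.33% and 18.6%, and SPL replicate 1 between 2.29% and 5.12%.

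Markers of the epithelium as a whole moved with the goblet cell genes. Beside 24.4% of all tested probes, all 12 pan-epithelial markers (11 of them tested) were higher in both IEL samples than in both SPL samples. Their summed level was 25.1 and 4.21 in IEL replicates 1 and 2, and 1.81 and 0.56 in SPL replicates 1 and 2, beside 39.1, 4.58, 1.66 and 0.33 for the goblet cell genes. Their defining members were measured in every sample, with *Epcam*, *Cdh1* and *Krt8* well above background on all 4 arrays. On the linear scale, the 11 tested pan-epithelial markers placed IEL replicate 2 at a median of 12.1% and SPL replicate 1 at 3.92%. Their part in the goblet cell result was not tested.

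Of the tested markers, 11 of 13 Paneth cell and 5 of 6 enteroendocrine genes showed the same order of samples, beside 13.8% of all tested probes. Of the tested enterocyte genes, 4 of 9 did. Paneth cell genes differed in size. The summed level of the Paneth cell genes was 1094 and 33.7 in IEL replicates 1 and 2, and 19.8 and 10.3 in SPL replicates 1 and 2. In SPL replicates 1 and 2, most of the sum came from *Defa3* (log2 levels of 3.06 and 2.27) and *Lyz1* (log2 levels of 2.30 and 2.35). *Lyz1* was lower in IEL replicate 2 (1.97) than in either SPL sample. The 13 tested members, α-defensin genes such as *Defa1* and *Defa3* and the lysozyme gene *Lyz1* among them, placed IEL replicate 2 at a median of 1.84% (-5.85% to 7.52%), beside 13.2% for the goblet cell genes, and the 2 ranges overlapped. In these lists, only tested genes at least 2 log2 units higher in the IEL sample of slide 1 were placed. The 4 of 9 tested enterocyte genes with this gap placed IEL replicate 2 at a median of 51.6% (19.6% to 118%). The 5 of 6 tested enteroendocrine genes with this gap placed it at a median of 11.8% (9.34% to 34.4%). These places are descriptions of 4 samples, and the differences between the lists were not tested.

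**Figure D4:**
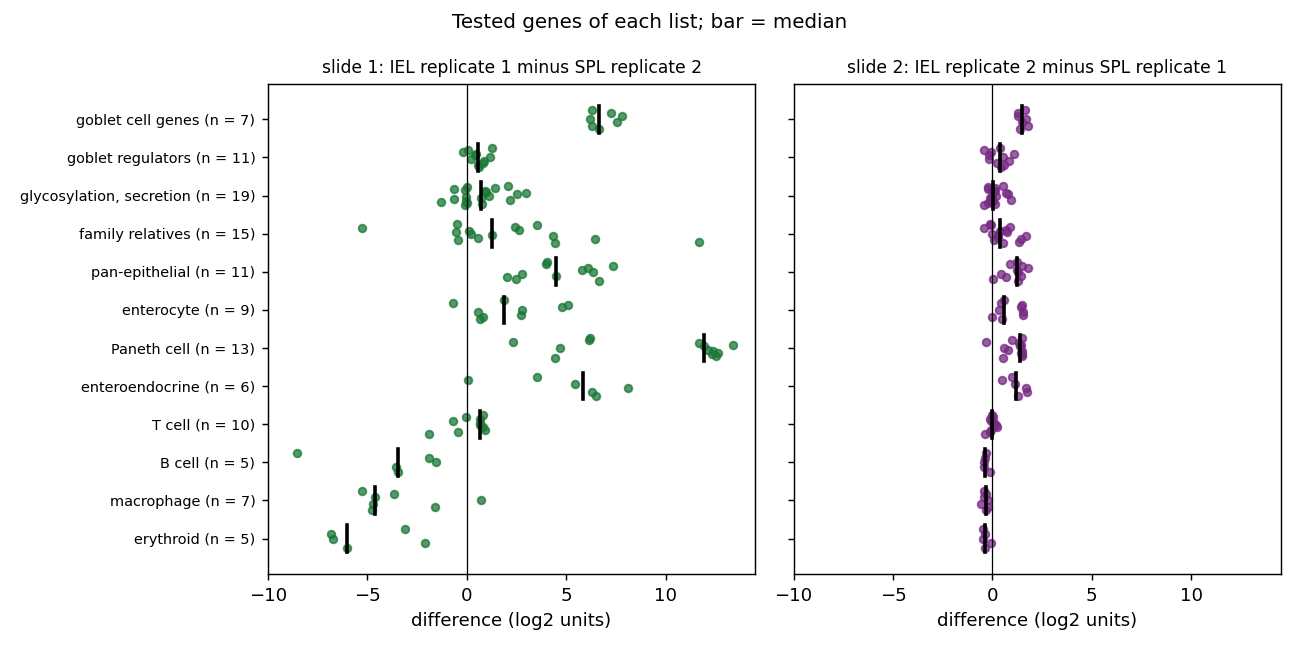
Difference between the IEL and the SPL sample within slide 1 (left) and within slide 2 (right), in log2 units on the x axis, for the tested genes of each list. Each point is a gene at 1 probe, the bar is the median of the list, and n is the number of genes. The goblet cell genes have medians of 6.66 on slide 1 and 1.49 on slide 2, whereas the T cell genes have medians of 0.65 and -0.02.

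The wider program of the goblet cell was read from 3 lists: transcription and stress regulators, mucin glycosylation and secretion, and relatives of the 9 genes. Of 76 listed genes, 72 were found on the array, at 71 probes, and 45 of these were tested. In limma over all 27912 tested probes, 0 pathway probes passed an adjusted p of 0.05 in either direction, as did 0 probes in all (0%), and the smallest adjusted p was 0.634. Without adjustment, limma put 6 of the pathway probes below 0.05 as higher in IELs and 0 as lower, beside 1292 and 307 of all tested probes. By the study's unpaired test, there were 0 pathway probes below 0.05 without adjustment, beside 2.93% of all tested probes. Without IEL replicate 2, limma called 17 of the 45 pathway probes, 15 of them higher in IELs, while it called 19.5% of all tested probes, 8.56% as higher.

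Of the regulators, 11 of 18 were tested, with a median difference of 0.53, against -0.00070 over all tested probes. It was 0.55 on slide 1 and 0.40 on slide 2. *Ern2*, an endoplasmic reticulum stress sensor of mucous cells, had levels of -3.03 and -2.67 in IELs and -3.50 and -3.91 in SPLs. *Xbp1*, a factor of the unfolded protein response that lymphocytes also use, had 2.44 and 1.14 in IELs and 0.74 and 1.14 in SPLs. Both differed by 0.85 between group means (limma, adjusted p = 0.634 for each).

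At the other end of this list were *Klf4*, a factor of goblet cell differentiation, and *Sox9*, a factor of crypt progenitors and Paneth cells, with differences of -0.12 and -0.19. *Klf4* had levels of 4.82 and 4.23 in IELs and of 4.28 and 5.01 in SPLs. Its groups overlapped, and it was well above background on all 4 arrays. *Sox9* had -4.97 and -6.03 in IELs and -5.59 and -5.02 in SPLs, and IEL replicate 2 was not well above background. The adjusted p by limma was 0.91 for *Klf4* and 0.873 for *Sox9*.

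Of the glycosylation and secretion genes, 19 of 25 matched were tested, with a median difference of 0.30. The groups did not overlap for 8 higher and 3 lower genes, beside 24.4% higher and 24.6% lower of all tested probes. The median was 0.73 on slide 1 and 0.04 on slide 2. *Nlrp6*, an innate sensor that regulates mucin granule release, had -2.92 and -5.09 in IELs and -5.78 and -5.89 in SPLs. *Guca2a*, which encodes the secreted peptide guanylin, had 1.24 and -0.07 in IELs and -0.86 and -1.28 in SPLs. Both followed the order of the secretory genes, with differences of 1.83 and 1.65, and on slide 2 the differences were 0.69 and 0.79.

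The lowest differences of this list belonged to *C1galt1*, the core O-glycan synthase, at -0.68, and *Rab3d*, a GTPase of secretory granules, at -0.43. *C1galt1* had -0.41 and 0.62 in IELs and 0.69 and 0.89 in SPLs, so its groups did not overlap. *Rab3d* had -1.58 and -0.79 in IELs and -0.56 and -0.95 in SPLs, so its groups did. The adjusted p by limma was 0.634 for *Nlrp6*, *Guca2a* and *C1galt1* and 0.674 for *Rab3d*.

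Relatives of the 9 genes had a median difference of 0.78 over 15 tested probes, with 1.25 on slide 1 and 0.38 on slide 2. *Itln1*, which encodes an intestinal lectin and is also a Paneth cell marker here, had 3.17 and -2.54 in IELs and -3.90 and -8.52 in SPLs. SPL replicate 2 was not well above background for it. *Muc13*, a transmembrane mucin of the epithelium, had -1.56 and -5.00 in IELs and was not well above background on either SPL array. It was at least 8.24-fold higher in IELs (limma, adjusted p = 0.634), a limit that fell to 2.50-fold without IEL replicate 1.

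*Retnlg*, a relative of *Retnlb* known from myeloid cells, went the other way. Its levels were -5.55 in IEL replicate 1, where it was not well above background, and -0.95, -0.52 and -0.25 in IEL replicate 2 and SPL replicates 1 and 2. Its low value was thus confined to IEL replicate 1, as were those of the erythroid genes. *Txndc12*, a relative of *Agr2* with a broad distribution, had 0.32 and 1.13 in IELs and 1.25 and 0.82 in SPLs, and its groups overlapped.

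Another 8 pathway probes were well above background on IEL replicate 1 alone and were not tested. *Foxa3*, *Elf3* and *Tff2* were chosen from them after their values were seen. *Foxa3*, a forkhead factor of secretory cells, had -3.01 in IEL replicate 1 and at most -7.00 in the other samples. *Elf3*, an epithelial ETS factor, had -3.09 and at most -6.62. *Tff2*, a trefoil gene like *Tff3*, had -0.07 and at most -7.12. Its IEL mean was 6.62-fold higher than the SPL limit. That value is not a lower limit, since only 1 of the 2 IEL arrays measured *Tff2* and the other entered at its dim value.

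The probes whose pattern over the 4 arrays was nearest to the median pattern of the 7 tested genes were sought among all other named and tested probes. The measure was the root mean square distance between profiles centred on their own mean. The 5 nearest were *Lypd8*, *Krt8*, *Degs2*, *Lgals2* and a second *Lypd8* probe, with distances of 0.074, 0.147, 0.177, 0.188 and 0.212 log2 units. For the first *Lypd8* probe and *Degs2*, the distance rests on SPL values that were not well above background. The 7 goblet cell genes themselves lay between 0.205 (*Tff3*) and 0.422 (*Fcgbp*) from that pattern. It is their own median, so these distances are not an independent yardstick. Between 4 (*Tff3*) and 13 (*Spink4* and *Fcgbp*) of the other probes lay closer to the pattern than the gene itself.

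*Lypd8* encodes an anchored protein of the gut epithelium that keeps flagellated bacteria away from it. Its nearest probe had -1.48 and -4.70 in IELs and was not well above background on either SPL array, with a difference of at least 9.34-fold, or 3.06-fold without IEL replicate 1. *Krt8* encodes a keratin of simple epithelia and had 2.66, -0.75, -2.24 and -4.19 in IEL replicates 1 and 2 and SPL replicates 1 and 2. *Lgals2*, which encodes a galectin of the gut, had 3.44, 0.01, -1.39 and -3.86 in the same order. *Degs2*, a sphingolipid desaturase gene, had -1.22 and -4.70 in IELs, at least 9.34-fold higher than the limit of the SPL arrays, or 2.80-fold without IEL replicate 1. These likenesses are over 4 samples.

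Because the genes shared one order over the samples, their promoters were read for motifs. The table of RefSeq promoters on GRCm38.p6 used here held 4 of the 9 genes, *Muc2*, *Agr2*, *Fcgbp* and *Spdef*. The 250 bases before the start are shown for the 3 that were tested, 5′ to 3′, with capitals at each motif match.
Muc2 promoter, chr7:141690090-141690339, plus strand: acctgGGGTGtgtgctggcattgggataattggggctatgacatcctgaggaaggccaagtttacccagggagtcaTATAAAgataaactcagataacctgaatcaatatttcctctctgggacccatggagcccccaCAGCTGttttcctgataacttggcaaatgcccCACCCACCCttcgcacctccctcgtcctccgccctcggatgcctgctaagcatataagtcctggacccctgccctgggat
Agr2 promoter, chr12:35992675-35992924, plus strand: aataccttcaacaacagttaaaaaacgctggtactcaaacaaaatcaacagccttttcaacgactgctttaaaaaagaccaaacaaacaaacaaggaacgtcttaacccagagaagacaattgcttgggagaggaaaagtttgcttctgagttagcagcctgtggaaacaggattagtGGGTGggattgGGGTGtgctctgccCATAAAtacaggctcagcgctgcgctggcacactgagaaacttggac
Fcgbp promoter, chr7:28070986-28071235, plus strand: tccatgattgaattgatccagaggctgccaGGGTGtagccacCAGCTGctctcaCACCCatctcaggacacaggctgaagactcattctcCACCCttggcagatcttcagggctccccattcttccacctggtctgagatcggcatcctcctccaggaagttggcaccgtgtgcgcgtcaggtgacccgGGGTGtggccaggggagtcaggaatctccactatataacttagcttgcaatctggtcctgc
The 6 motifs searched on both strands of 300-base windows were TATAAA (the box bound by TBP), CAGCTG (an E-box), CCGGAT (an ETS motif of the SPDEF kind), CACCC (KLF kind), TGTTTA (FOXA kind) and TTTATG (CDX kind). *Muc2* held TATAAA at -174 and CAGCTG at -112 from the start, and 2 overlapping CACCC at -80 and -76. *Fcgbp* held CAGCTG at -208, and *Agr2* held TTTATG on the minus strand at -47. *Spdef*, whose window is not shown, held TTTATG on the plus strand at -191 and no other motif. CACCC was in the windows of *Muc2*, *Agr2* and *Fcgbp* and not in that of *Spdef*. It is in 57.5% of all 32851 promoters of this length. CAGCTG is in 16.3% of them, TATAAA in 13.6% and TTTATG in 11.9%. CCGGAT and TGTTTA were in none of the 4 windows, and they are in 6.04% and 13.4% of all promoters. A match is a stretch of letters and not a measured site.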

How the data were processed

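RNA of 2 CD8αβ+ IEL and 2 CD8αβ+ SPL samples was measured on 4 Agilent 1-color arrays. The authors deposited scanner files whose intensity values, per the file headers, were background-subtracted by Feature Extraction 10.7.3.1 (10.7.1.1 in the submitters' processing notes) and not normalized between arrays. A deposited table of log2 values, with no normalization stated, served as an alternative. The methods name another chip type.

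Here, each array's 75th percentile over 43379 spots that are not controls (312 to 605 units) was subtracted from the log2 intensity. Spots with an outlier mark (98 to 179 per array) were left out, no spot was saturated (0 per array), and 63.6% to 69.6% of the 41174 probes were well above background. Precision is limited by the number of arrays. Probes entered the test if both arrays of at least 1 group were well above background. Files were read with the R package data.table (version 1.17.8), and R 4.3.3 with limma 3.58.1 compared the groups without a block and with 2 residual degrees of freedom, two-sided, at a Benjamini-Hochberg threshold of 0.05. An exact permutation test of 2 against 2 samples cannot go below 0.33. A gene was represented by its brightest probe, in the lists by its brightest tested probe. Lower limits used, on each dim array, the higher of the probe's own level and the lowest level well above background. Summed levels are sums of linear normalized values.

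The members and all lists were chosen with earlier results of these data known. Every member was named, the 2 highest and 2 lowest tested genes of each pathway list, at most 3 genes of a cell type list, and the 5 probes nearest in pattern. Alternatives were quantile normalization, another percentile, normexp with an offset of 50, normexp fitted without spots over 20 units under the local background, the authors' values, other filters, kept marked spots, an intensity trend, the methods' t-test, a block for replicate or slide, leaving out each sample, and the mean of a gene's probes. The count of genes with separate groups was added to these after the data were seen, as were limits without IEL replicate 1 and the *Muc2* difference at the limit of an array.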

Additional observations from a re-analysis of the deposited data

How the results depend on the processing

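The median difference of the 9 goblet cell genes stayed between 2.60 and 5.46 log2 units under all alternatives except plain normexp, where it was 1.11. The same correction moved the median of all tested probes to -0.38 and gave -0.23 for *Muc2*, -0.98 for *Retnlb* and -0.99 for *Spdef*. The cause was not tested, but a fit that left out spots over 20 units under the local background (16 on SPL replicate 1 and 3 on each other array) gave 1.82, 0.60 and 0.60 for these genes, with a median of all tested probes of 0.15. Of 63 gene values recomputed with all samples, 53 moved by less than the spread between replicates. The other 10 all came from the 2 normexp fits, whose remaining values stayed within that spread. It was wide, since *Tff3* at 2.35 under plain normexp, against 4.28 in the main processing, counted as within it.

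Of all tested probes, limma called 0 under every scaling, filter, background correction and block tried, and with each sample left out the count lay between 0 and 5453. The highest count came without IEL replicate 2, when IEL replicate 1 is assumed to vary like the SPL samples, and the pathway probes called then ranged from 0 to 17. The methods' t-test put 819 probes below 0.05 unadjusted and 0 after Benjamini-Hochberg adjustment. Same-numbered samples had nearly uncorrelated deviations from their group means over all tested probes (r = -0.025). With 2 samples per group, this value cannot show whether they were paired. A fit with the replicate number as a block left 0 probes and 0 pathway probes called, with the median difference at 4.03. Signal over background limits *Retnlb*, *Spdef* and the SPL values of *Muc2*.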
